A study of Mus musculus with 9 samples.

Results

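The genes described here are 8 intermediate filament genes: the simple epithelial keratins Krt7, Krt8, Krt18, Krt19, Krt23 and Krt80, and the genes for vimentin (Vim) and nestin (Nes). They were chosen by name from the 55450 genes of a count table, and all 8 were among the 19357 genes that passed the filter on low counts. RNA-sequencing was performed on mammary cells positive for EYFP, a yellow fluorescent protein switched on by Cre recombinase, that were sorted by FACS from adult nulliparous mice. Every mouse carried K8CreERT2, a tamoxifen-inducible Cre driven by the Krt8 promoter, together with the lsl-EYFP reporter, and received 2 mg tamoxifen on 5 days, with the sort 7 days after the last dose. The control group carried these alleles alone, the LATS1/2-KO group also carried floxed Lats1 and Lats2, and the LATS1/2-Sox9-KO group carried floxed Lats1, Lats2 and Sox9. Each group held 3 libraries, with total counts from 44167762 to 47003587 in control, from 50508666 to 61745346 in LATS1/2-KO and from 55503365 to 61967651 in LATS1/2-Sox9-KO. Since the Krt8 promoter drives the recombinase in every group, cells entered the sort because they, or the cells they came from, had used the promoter of a gene that is itself among the 8.

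Intermediate filaments are the cytoskeletal fibers that give animal cells their resistance to stretch. Keratin filaments are built from pairs of an acidic type I keratin (Krt18, Krt19 and Krt23 here) with a basic type II keratin (Krt7, Krt8 and Krt80). Krt8 and Krt18 form the principal pair of simple, single-layered epithelia, and in the mammary gland they mark luminal cells, whereas Krt5 and Krt14 mark the outer basal layer. Vimentin is the type III filament of mesenchymal cells, and nestin is a large filament protein of progenitor cells that assembles together with vimentin. Lats1 and Lats2 encode the kinases of the Hippo pathway that restrain the transcriptional regulators YAP and TAZ, and Sox9 encodes a transcription factor of luminal progenitors.

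The genes targeted in the mice were examined first. Normalized counts, meaning counts scaled to a common effective library size, were 5672, 5929 and 5940 for Lats1 in control, 2090, 1923 and 2336 in LATS1/2-KO, and 2058, 1844 and 1709 in LATS1/2-Sox9-KO. Lats1 was therefore lower in all 6 libraries labelled as deleted. Lats2 counts were 1039, 865 and 1220 in control, 1256, 1434 and 1723 in LATS1/2-KO, and 1957, 1580 and 1240 in LATS1/2-Sox9-KO. Lats2 did not fall in either mutant group, and its log2 fold change was 0.50 ± 0.20 (SE) in LATS1/2-KO (adjusted p = 0.0571) and 0.61 ± 0.20 in LATS1/2-Sox9-KO (adjusted p = 0.024). Sox9 had means of 21598 ± 1683 (SD, n = 3) in control, 9715 ± 2620 in LATS1/2-KO and 7343 ± 1281 in LATS1/2-Sox9-KO, and the last 2 groups overlapped. A floxed gene can still give reads from its remaining exons, and counts per gene do not separate those from the deleted part, so the level of Lats2 or Sox9 checks the deletion only in part. The groups below are the libraries that carry these labels.

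Krt8, Krt18, Krt7 and Krt80 are on chromosome 15 (GRCm38), in separate pairs. Krt8 is at chr15:101996698-102004482 on the minus strand and Krt18 at chr15:102028180-102032027 on the plus strand, so that the pair is transcribed away from each other with 23697 bases between the genes. Krt80 (chr15:101347444-101370162, minus strand) and Krt7 (chr15:101411043-101430313, plus strand) are arranged in the same way, 40880 bases apart. Krt19 (chr11:100140810-100148665) and Krt23 (chr11:99477974-99493137) are both on the minus strand of chromosome 11, Vim is at chr2:13573927-13582826 and Nes at chr3:87971078-87980451, both on the plus strand. The promoters of the keratins that moved together across the libraries follow, from RefSeq on GRCm38.p6, 5′ to 3′ on the strand of the gene, from 250 bases before the start site and ending before the first annotated untranslated base. The start sites are those of RefSeq, and the gene positions given above are those of GENCODE M21. The Krt7 of GENCODE starts further upstream, so that the Krt7 window lies inside the GENCODE gene. The Krt8 and Krt18 of GENCODE start inside their windows, so only the first 110 and 214 of the 250 bases are printed. All 250 were searched. Capitals mark GGGCGG or its reverse complement, the core letters bound by SP1-type factors.
Krt7 (chr15:101412153-101412401, plus strand): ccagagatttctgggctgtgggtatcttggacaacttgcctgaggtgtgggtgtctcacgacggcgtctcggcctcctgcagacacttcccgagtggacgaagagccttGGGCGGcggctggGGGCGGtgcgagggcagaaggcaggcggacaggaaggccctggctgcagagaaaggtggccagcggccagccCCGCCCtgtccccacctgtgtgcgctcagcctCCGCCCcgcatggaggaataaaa
Krt18 (chr15:102027966-102028179, plus strand): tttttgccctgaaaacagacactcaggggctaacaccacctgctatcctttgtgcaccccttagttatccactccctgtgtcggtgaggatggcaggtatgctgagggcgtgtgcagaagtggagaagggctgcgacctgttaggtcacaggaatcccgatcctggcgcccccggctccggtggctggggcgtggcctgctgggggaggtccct
Krt8 (chr15:102004483-102004592, minus strand): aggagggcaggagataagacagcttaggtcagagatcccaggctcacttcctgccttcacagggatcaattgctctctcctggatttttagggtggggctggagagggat
The 250 bases before the start site were available for 6 of the 8 genes, with Krt19 and Krt80 not analysed here, and were searched on both strands. The Krt7 window held 4 copies of GGGCGG, with first bases at -141, -128, -56 and -24 from the start, and the Nes window held 2, at -73 and -62. The Krt8, Krt18, Krt23 and Vim windows held no copy, and 32.7% of 32851 promoters held at least 1. The TEAD core GGAATG, found in 12.6% of promoters, and the AP-1 site TGACTCA or TGAGTCA, found in 4.46%, were matched in none of the 6 windows. These are letter matches within a short window and say nothing about binding elsewhere.

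In control cells Krt18, Krt19 and Krt8 were among the most abundant transcripts, and the other simple keratins were not. In this paragraph levels are compared between genes as CPM per kilobase of merged exons, a scale corrected for library size and gene length. Keratin shares and the most abundant gene of a list, given below, rest on counts that are not corrected for length. On this scale Krt18 averaged 3211 ± 118 in control (SD, n = 3), rank 2 of the 19357 genes, followed by Krt19 at 1910 ± 274 and Krt8 at 1764 ± 248, which did not differ beyond their spread. Krt7 stood far lower at 89.2 ± 3.81 and Krt80 at 6.98 ± 2.78. Krt23 (2.48 ± 1.31) and Vim (2.25 ± 0.765) overlapped, and Nes was the lowest at 0.425 ± 0.00442, rank 14650. In LATS1/2-KO the order was Krt18 (5257 ± 287), Krt8 (2639 ± 133), Krt19 (936 ± 364), Krt7 (455 ± 8.33), Vim (163 ± 34.3), Krt80 (25.1 ± 6.63), Krt23 (5.58 ± 3.87) and Nes (2.15 ± 0.797). The order was the same in LATS1/2-Sox9-KO, with Krt18 at 9253 ± 974, Krt8 at 4229 ± 143, Krt19 at 1480 ± 88.0, Krt7 at 795 ± 80.1, Vim at 69.8 ± 46.7, Krt80 at 43.7 ± 9.50, Krt23 at 13.8 ± 2.33 and Nes between 1.14 and 2.07. Vim and Krt80 overlapped in that group. Krt18 was the gene with the highest level of all those tested in both mutant groups. With the length of the longest transcript in the CCDS set in place of merged exons, Vim stood above Krt23 in control, and the other places in the order were the same in all 3 groups. Krt8 levels leave out counts of its near-identical pseudogene Krt8-ps, described below, which came to 24.1% of Krt8 counts in control. The place of Krt8 beside Krt19 in control is therefore uncertain.

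**Figure D1:**
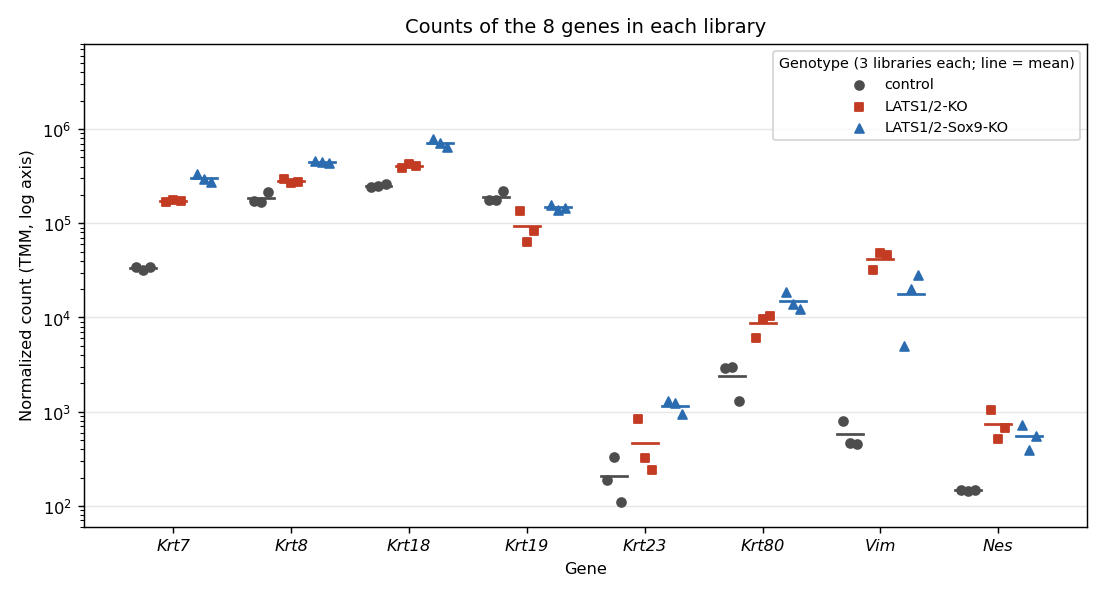
Normalized count (TMM scaling, logarithmic axis) of each of the 8 genes in each of the 9 libraries, with points for libraries and lines for the mean of 3. Krt7, Krt8 and Krt18 rise in steps from control to LATS1/2-KO to LATS1/2-Sox9-KO without overlap, Krt19 is lowest in LATS1/2-KO, and Vim and Nes are lowest in control.

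Comparing LATS1/2-KO with control asks which of these filament genes differ when the Hippo kinases are targeted in Krt8-expressing cells. Of the 8 genes, 6 rose (Krt7, Krt8, Krt18, Krt80, Vim and Nes), 1 fell (Krt19) and Krt23 did not pass the test, at an adjusted p of at most 0.05. Across all genes tested, 28.7% rose and 27.1% fell, so a change in either direction was common (55.7%). With a fold change above 2 also required, 4 of the 8 rose and 1 fell, against 17.1% and 17.5% of all genes. The libraries of the 2 groups did not overlap for 6 genes that were higher and 1 that was lower, against 31.3% and 30.3% of all genes. The median log2 fold change was 1.51 over the 8 genes and 0.04 over all genes. In these bulk libraries, fewer cells of a type and less RNA per cell cannot be told apart.

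Krt7, a type II keratin of ducts and glands, had normalized counts of 34579, 32164 and 34752 in control and 169539, 175831 and 172142 in LATS1/2-KO. The 2 groups lay far apart with little spread within either, and the log2 fold change was 2.35 ± 0.11 (SE; adjusted p = 5.47e-07), a 5.10-fold rise. Krt8 counts were 172914, 168814 and 216010 in control and 293126, 265242 and 276031 in LATS1/2-KO. All 3 mutant libraries were above all 3 controls, and the rise was 0.58 ± 0.12 on the log2 scale (adjusted p = 0.00186). Krt18, the type I partner of Krt8, had 239706, 247482 and 257940 in control and 384348, 428714 and 406769 in LATS1/2-KO. Again the groups did not overlap, and the rise was 0.71 ± 0.11 (adjusted p = 0.000337). The well-known pair thus rose by less than 2-fold, whereas Krt7 rose by more.

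Krt19, a short type I keratin of luminal cells that lacks the tail domain of other keratins, went the other way. Its normalized counts were 174959, 174891 and 222366 in control and 133710, 62997 and 83630 in LATS1/2-KO. Every LATS1/2-KO library was below every control, with replicate 1 closest to them, and the log2 fold change was -1.03 ± 0.24 (adjusted p = 0.00418). The fall was -1.37 without LATS1/2-KO replicate 1 and -0.82 without LATS1/2-KO replicate 2, and passed the test in both cases. Krt80, a type II keratin associated with cell margins and desmosomes, had 2896, 3007 and 1297 in control and 6052, 9595 and 10313 in LATS1/2-KO, a rise of 1.85 ± 0.32 (adjusted p = 0.000833). Krt23, a type I keratin of low abundance here, had 188, 329 and 111 in control and 843, 326 and 242 in LATS1/2-KO. The groups overlapped, 1 LATS1/2-KO library stood well above the other two, and the log2 fold change of 1.17 ± 0.49 did not pass (adjusted p = 0.0665). The log2 fold change was 0.44 (adjusted p = 0.354) without LATS1/2-KO replicate 1. Krt23 did pass without control replicate 2 (log2 fold change 1.65, adjusted p = 0.0283) and without LATS1/2-KO replicate 3 (1.49, adjusted p = 0.0288).

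Vim had the widest difference of the 8 genes. Its normalized counts were 799, 469 and 453 in control and 31667, 47792 and 45676 in LATS1/2-KO. No mutant library came near the controls, and the log2 fold change was 6.18 ± 0.62 (adjusted p = 2.82e-05), a 72.7-fold rise. Nes counts were 147, 145 and 148 in control and 1048, 514 and 664 in LATS1/2-KO. Controls were nearly identical and low, all LATS1/2-KO libraries were higher, and the rise was 2.34 ± 0.30 (adjusted p = 0.000133). LATS1/2-KO replicate 1 had the lowest Vim and the highest Nes, Krt23 and Krt19 of its group.

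The LATS1/2-Sox9-KO libraries, in which Sox9 was targeted as well, were compared with the same 3 controls. In this comparison 7 of the 8 genes rose, none fell and Krt19 did not pass, whereas 29.3% of all genes rose and 28.7% fell (57.9% in either direction). All 7 rises were above 2-fold and no gene fell by as much, against 17.8% and 19.6% of all genes. Without overlap, 7 genes were higher and 1 lower, against 34.9% and 33.8% of all genes, and the median log2 fold change was 2.19 over the 8 genes and 0.01 over all genes. As both comparisons use the same controls, their fold changes are not independent of each other.

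The principal pair and Krt7 were highest in these libraries. Krt7 counts were 335742, 292202 and 277263 (log2 fold change against control 3.16 ± 0.11, adjusted p = 1.12e-07). Krt8 counts were 461281, 444592 and 431237 (1.26 ± 0.12, adjusted p = 1.34e-05), and Krt18 counts were 789495, 718520 and 638918 (1.53 ± 0.11, adjusted p = 3.15e-06). Each of these 9 values lay above all LATS1/2-KO and all control values of the same gene. Of all genes, 14.6% were higher without overlap against LATS1/2-KO and 34.9% against control. Krt80 had 18698, 13921 and 12446 (2.65 ± 0.33, adjusted p = 8.95e-05), and Krt23 had 1300, 1249 and 936 (2.47 ± 0.51, adjusted p = 0.00197). For Krt23, unlike in LATS1/2-KO, all 3 libraries lay above the controls. Krt19 had 157162, 139760 and 146362, below every control, but the log2 fold change of -0.37 ± 0.23 did not pass (adjusted p = 0.204).

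Vim and Nes were also above control in the LATS1/2-Sox9-KO libraries. Vim had 4975, 19926 and 28552 (4.96 ± 0.59, adjusted p = 6.15e-05), so that replicate 1 stood well below the others of its group, though above every control. Nes had 716, 393 and 553 (1.91 ± 0.30, adjusted p = 0.000376), with replicate 1 the highest. The library with the lowest Vim thus had the highest Nes in each of the mutant groups, a description of 6 libraries.

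**Figure D2:**
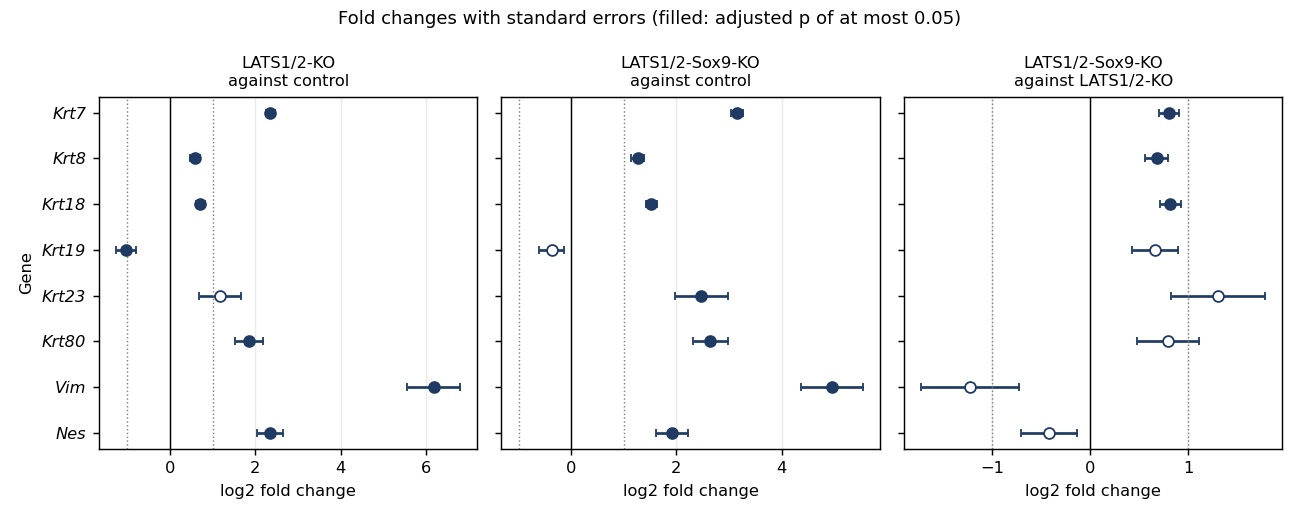
Log2 fold change of each of the 8 genes in 3 comparisons, with bars of 1 standard error; filled points passed an adjusted p of 0.05 and dotted lines mark a 2-fold change. Vim has the largest fold changes against control (6.18 and 4.96), and only Krt7, Krt8 and Krt18 pass in the comparison of the mutant groups.

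Comparing LATS1/2-Sox9-KO directly with LATS1/2-KO tests whether the effect of targeting Sox9 in addition differs from that of targeting Lats1 and Lats2 alone. Here 3 of the 8 genes rose (Krt7, Krt8 and Krt18) and none fell, where 3.13% of all genes rose and 3.33% fell (6.45% in either direction). The rise was 0.81 ± 0.10 for Krt7 (adjusted p = 0.00425), 0.68 ± 0.12 for Krt8 (adjusted p = 0.0129) and 0.82 ± 0.11 for Krt18 (adjusted p = 0.00517), all under 2-fold. The median log2 fold change was 0.74 over the 8 genes and -0.02 over all genes. None of the 8 passed when a change of more than 2-fold was also required, against 1.55% of all genes higher and 2.16% lower (3.71% in either direction).

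The other 5 genes had wider spread in this comparison. The log2 fold changes were 0.66 ± 0.24 for Krt19 (adjusted p = 0.13), 1.31 ± 0.48 for Krt23 (adjusted p = 0.143) and 0.80 ± 0.31 for Krt80 (adjusted p = 0.166). In each of these keratins all LATS1/2-Sox9-KO libraries were above all LATS1/2-KO libraries, which held for 14.6% of all genes. Vim was lower in every LATS1/2-Sox9-KO library, as was the case for 13.3% of genes, and its log2 fold change of -1.23 ± 0.50 did not pass (adjusted p = 0.179). Nes values overlapped (-0.42 ± 0.29, adjusted p = 0.426). With 1 library left out at a time, the log2 fold change ranged from -1.73 to -0.76 for Vim and from -0.62 to -0.09 for Nes. Neither gene passed in any of these fits. Without LATS1/2-KO replicate 1, Krt19 (1.01, adjusted p = 0.0104) and Krt23 (2.03, adjusted p = 0.0199) also passed, so that 5 of the 8 genes rose.

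The make-up of the keratin pool differed between control and mutant libraries. The table held 54 keratin genes, of which 27 were tested and 12 had no count in any library. All keratins together took 1.25% ± 0.113 of counts in control (SD, n = 3), 2.23% ± 0.226 in LATS1/2-KO and 3.43% ± 0.0793 in LATS1/2-Sox9-KO. The 6 simple keratins made up 97.9% ± 0.994 of keratin counts in control, 83.6% ± 4.54 in LATS1/2-KO and 85.0% ± 6.25 in LATS1/2-Sox9-KO. Of all keratin counts, Krt18 held 36.9% ± 2.44, 35.5% ± 4.52 and 37.4% ± 3.75, values that overlapped in all 3 groups. Krt19 went from 28.1% ± 1.12 in control to 7.99% ± 2.45 and 7.72% ± 0.395, and Krt7 from 5.03% ± 0.436 to 15.0% ± 1.41 and 15.8% ± 1.48. Krt14, the basal type I keratin, went from 0.101% ± 0.0373 to 15.2% ± 4.22 and 12.3% ± 6.12. The share of Krt19 was thus lower, and those of Krt7 and Krt14 higher, in all 6 mutant libraries than in all 3 controls. With 3 libraries against 3, a two-sided permutation test on a single ratio cannot go below p = 0.1. That test was not run on these shares, and no other test of them was made.

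Because filaments need a type I and a type II partner, the counts of Krt8 and Krt18 were also set side by side. The ratio of Krt8 to Krt18 counts was 0.747 ± 0.0808 in control, 0.687 ± 0.0723 in LATS1/2-KO and 0.626 ± 0.0458 in LATS1/2-Sox9-KO, and the lowest control (0.682) lay within the range of LATS1/2-KO (0.619 to 0.763) and above that of LATS1/2-Sox9-KO (0.584 to 0.675). The ratio of Krt7 to Krt8, both type II, was 0.184 ± 0.0204, 0.622 ± 0.0423 and 0.676 ± 0.0455, with no overlap between control and the mutants. Ratios of raw counts are not corrected for length, so only their change between groups is read. Krt8 has a processed pseudogene on chromosome 7, Krt8-ps (chr7:23357125-23358069), whose transcript is 98.6% identical to that of Krt8 over 941 bases. It received 24.1% ± 0.491 as many counts as Krt8 in control, 25.8% ± 0.0786 in LATS1/2-KO and 25.5% ± 0.581 in LATS1/2-Sox9-KO, so the split of reads between the 2 loci is uncertain. The fold changes of Krt8-ps (0.68 against control in LATS1/2-KO and 1.34 in LATS1/2-Sox9-KO) followed those of Krt8. With the counts of both summed, the ratio to Krt18 was 0.927, 0.864 and 0.786, and the calls for Krt8 were the same. Gm5200, a pseudogene with 90.5% identity to Krt18, had at most 35 counts. Antisense genes that overlap Krt7, Krt8 and Krt80 had at most 277 counts. The methods describe counting on the same strand, whereas the kit named in the labels is not known to keep strand, so reads of such partners may not be told apart from those of the keratins.

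The 21 other keratins that were tested moved in both directions. In LATS1/2-KO against control 4 rose and 9 fell (median log2 fold change -0.74), against 28.7% and 27.1% of all genes, and in LATS1/2-Sox9-KO against control 7 rose and 9 fell (median 0.13), against 29.3% and 28.7%. In LATS1/2-Sox9-KO against LATS1/2-KO 2 rose and none fell, against 3.13% and 3.33%. Of 6 basal and stress keratins tested from a list of 7, 3 rose and 2 fell in LATS1/2-KO against control (median log2 fold change 1.16). Krt14 went from 672 ± 212 to 177575 ± 65294 normalized counts (log2 fold change 8.04 ± 0.52, adjusted p = 3.12e-06), and Krt17, a type I keratin of injured and proliferating epithelium, from 310 ± 122 to 4950 ± 1093 (3.99 ± 0.29, adjusted p = 4.86e-06). Krt15, the listed basal keratin with the most counts in control (1527 ± 273), fell by 3.60 on the log2 scale (adjusted p = 0.00147) and Krt16, the stress keratin, by 0.81 (adjusted p = 0.00559). Of these 6 basal and stress keratins, 5 rose and 1 fell in LATS1/2-Sox9-KO against control (median 2.81), where 29.3% and 28.7% of all genes did. Comparing the mutant groups, Krt16 and Krt17 were the 2 other keratins that rose in LATS1/2-Sox9-KO, by 2.91 ± 0.20 (adjusted p = 0.000867) and 2.76 ± 0.27 (adjusted p = 0.00147). Krt14 was 253000, 140300 and 139500 in LATS1/2-KO and 117100, 240000 and 349700 in LATS1/2-Sox9-KO, with overlap. Krt5, the other basal marker, did not pass in LATS1/2-KO against control (log2 fold change 0.06, adjusted p = 0.935). Nor did it pass between the mutant groups (1.53, adjusted p = 0.131).

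Other intermediate filament genes were read as a list. Of 14 listed, among them Krt20 and the lamins, 10 were tested, and in LATS1/2-KO against control 1 rose and 6 fell (median log2 fold change -1.30), where 28.7% of all genes rose and 27.1% fell (median 0.04). Lmnb1, which encodes lamin B1 of the nuclear lamina, rose by 2.22 ± 0.18 (adjusted p = 9.07e-06). Gfap, the type III filament of astrocytes, fell by 3.34 (adjusted p = 0.00131) and Synm, encoding synemin, a partner of vimentin and desmin, fell by 2.32 (adjusted p = 0.0113), both from means of 104 ± 48.1 and 128 ± 44.2 normalized counts in control. Lmna, encoding the A-type lamins and the most abundant gene of the list, had 183200, 141100 and 114100 in control and 43710, 35380 and 46840 in LATS1/2-KO. In LATS1/2-Sox9-KO against control 1 rose and 5 fell, against 29.3% and 28.7% of all genes. None of the 10 passed between the mutant groups, where 6.45% of all genes did.

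Genes for proteins that tether filaments to junctions moved in both directions. All 17 listed cytolinkers and filament anchors were tested, and 6 rose and 8 fell in LATS1/2-KO against control (median log2 fold change 0.02), a share called that compares with 55.7% of all genes. Ppl, encoding periplakin, rose from 6764 ± 881 to 18298 ± 1016 normalized counts (1.44 ± 0.14, adjusted p = 1.97e-05), and the desmosomal cadherin gene Dsg2 rose by 1.10 ± 0.12 (adjusted p = 4.65e-05). Plec, encoding plectin, which links filaments to hemidesmosomes, fell by 1.52 (adjusted p = 0.00311), and Jup, encoding plakoglobin, fell by 1.38 (adjusted p = 0.000154). Against LATS1/2-KO, 4 rose and none fell in LATS1/2-Sox9-KO, where 3.13% of all genes rose, led by the plakin genes Evpl (1.47 ± 0.17, adjusted p = 0.00269) and Ppl (1.47 ± 0.14, adjusted p = 0.0014). In LATS1/2-Sox9-KO against control 8 rose and 7 fell, where 29.3% of all genes rose and 28.7% fell.

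Genes for regulators of filament assembly were tested as a list of 16, for kinases, chaperones and 14-3-3 proteins. Of these 8 rose and 5 fell in LATS1/2-KO against control (median 0.24), against 55.7% of all genes called in either direction. Cdk1, the mitotic kinase that phosphorylates vimentin, went from 171 ± 177 to 4363 ± 769 normalized counts (4.67 ± 0.60, adjusted p = 0.000129). Cryab, encoding a small heat-shock protein that binds filaments, rose by 3.95 ± 0.33 (adjusted p = 1.08e-05). The kinase gene Prkce fell by 1.94 (adjusted p = 0.000239), and Sfn, encoding 14-3-3 sigma of epithelia, fell by 0.98 (adjusted p = 0.00307). In LATS1/2-Sox9-KO against control 8 rose and 4 fell (29.3% and 28.7% of all genes). Of the 16, only Hspb1, a small heat-shock protein gene, rose in LATS1/2-Sox9-KO against LATS1/2-KO (0.65 ± 0.13, adjusted p = 0.0206), and the kinase gene Pak1 fell by 0.47 (adjusted p = 0.0381), where 3.13% of all genes rose and 3.33% fell.

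The sorted cells were checked against markers of the labelled tissue. All 12 luminal epithelial markers were tested and their summed normalized counts were 516600, 499500 and 490200 in control, 290000, 375700 and 381100 in LATS1/2-KO, and 391200, 316800 and 287200 in LATS1/2-Sox9-KO, with Cldn4, a tight-junction gene, the most abundant. In LATS1/2-KO against control 2 rose, 5 fell and 5 did not pass, against 28.7% higher and 27.1% lower of all genes. The transcription factor gene Ehf rose by 0.56 ± 0.18 (adjusted p = 0.0203) and the splicing regulator gene Esrp1 by 0.42 ± 0.13 (adjusted p = 0.0206), while Prom1 fell by 4.63 (adjusted p = 0.000723) and the epithelial transcription factor gene Elf3 by 2.87 (adjusted p = 3.29e-05). In LATS1/2-Sox9-KO against control 1 rose and 6 fell, beside 29.3% and 28.7% of all genes. Against LATS1/2-KO, 2 luminal markers fell in LATS1/2-Sox9-KO, as did 3.33% of all genes, the casein gene Csn3 by 1.51 (adjusted p = 0.008) and the adhesion gene Epcam by 0.56 (adjusted p = 0.0164).

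Vim and Nes are also used by fibroblasts, endothelial cells, pericytes and white blood cells, so markers of those cells were read in each library. Summed fibroblast markers were 2483, 4427 and 9633 normalized counts in control, 10470, 2926 and 3513 in LATS1/2-KO, and 3085, 4313 and 7851 in LATS1/2-Sox9-KO, and the 3 groups overlapped. Most of the control sum was Dcn, a matrix proteoglycan gene, which fell in LATS1/2-KO from 4360 ± 3396 to 923 ± 555 (adjusted p = 0.0429). Without Dcn the sums were 857.2, 1136 and 1471 in control, 9148, 2638 and 2352 in LATS1/2-KO, and 3056, 4193 and 7526 in LATS1/2-Sox9-KO, so that all 6 mutant libraries were higher, as they were for Vim. Of the 12 tested, 6 rose and 1 fell in LATS1/2-KO (28.7% and 27.1% of all genes, which is also the background of the marker counts for LATS1/2-KO that follow), and 5 rose and 2 fell in LATS1/2-Sox9-KO against control (29.3% and 28.7%). Thy1, a surface protein gene of stromal cells, went from 8.77 ± 4.31 to 154 ± 41.2 and the collagen gene Col3a1 from 228 ± 189 to 2006 ± 1805 in LATS1/2-KO. The LATS1/2-KO library with the highest fibroblast sum without Dcn, replicate 1, had the lowest Vim of its group, whereas in LATS1/2-Sox9-KO this sum and Vim were both lowest in replicate 1 and highest in replicate 3.

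Endothelial markers summed to 6459, 5339 and 6154 in control, 1214, 923.5 and 1018 in LATS1/2-KO, and 427.9, 1052 and 1181 in LATS1/2-Sox9-KO. This difference was that of Vwf, the von Willebrand factor gene (5133 ± 484 in control and 162 ± 96.8 in LATS1/2-KO), because the sum of the others was 893.1, 729.1 and 932.2, then 949.8, 852.3 and 867.3, and 365.7, 936.7 and 1000.0, with overlap of all groups. Of the 10, 1 rose in LATS1/2-KO (Kdr, a growth factor receptor gene, from 25.3 ± 21.1 to 136 ± 56.6) and 2 fell (Vwf and Egfl7), and in LATS1/2-Sox9-KO against control 1 rose and 3 fell (29.3% and 28.7% of all genes). The pericyte and smooth muscle sum was 22630, 20980 and 17560 in control, 4298, 1821 and 3622 in LATS1/2-KO, and 3368, 3872 and 4277 in LATS1/2-Sox9-KO. Most of it was Notch3 (19486 ± 2601 in control and 3006 ± 1297 in LATS1/2-KO), a receptor gene that luminal progenitors are also known to use. Without Notch3 the sum was still lower in the mutants, between 827.9 and 946.0 in control and between 209.8 and 437.5 in the 6 mutant libraries. Of the 6 pericyte genes tested from 8, 1 rose and 4 fell in LATS1/2-KO. The one that rose was the proteoglycan gene Cspg4, with 1.16, 6.80 and 6.22 in control and 34.1, 25.4 and 13.7 in LATS1/2-KO (adjusted p = 0.0269), and Rgs5, a pericyte signaling gene, was among those that fell (144 ± 43.6 to 29.5 ± 22.6). None of the 6 rose and 4 fell in LATS1/2-Sox9-KO against control, against the same shares.

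The sums of immune and myoepithelial markers were higher in every mutant library than in every control, and each rested on its most abundant gene. Immune markers summed to 1147, 847.1 and 777.9 in control, 4403, 3105 and 2099 in LATS1/2-KO, and 3570, 3767 and 4833 in LATS1/2-Sox9-KO. Csf1r, the macrophage receptor gene, was the only one of the 7 tested from 10 that passed in LATS1/2-KO (158 ± 43.0 to 2310 ± 529, adjusted p = 3.27e-06), and in LATS1/2-Sox9-KO against control 2 of the 7 rose and none fell (29.3% and 28.7% of all genes). Without it the sums were between 638.5 and 939.5 in control and between 346.5 and 1599 in the mutants. Ptprc, which marks all white blood cells, had 40.6, 55.6 and 17.4 in control, 166.5, 34.7 and 10.9 in LATS1/2-KO, and 84.5, 29.9 and 107.5 in LATS1/2-Sox9-KO, and the T cell gene Cd3e had at most 3 counts in any library. Myoepithelial markers summed to 4169, 5967 and 5027 in control, 12140, 19400 and 14650 in LATS1/2-KO, and 6530, 9196 and 7272 in LATS1/2-Sox9-KO, and without Acta2, the contractile actin gene, the groups overlapped. Of these 8 genes 3 rose and 3 fell in LATS1/2-KO, and 2 rose and 5 fell in LATS1/2-Sox9-KO against control (median log2 fold change -0.96), where 29.3% and 28.7% of all genes did. In LATS1/2-KO Acta2 rose by 3.72 ± 0.26 (adjusted p = 3.88e-06) and Tagln, another smooth muscle gene, by 1.52 ± 0.34 (adjusted p = 0.00338), whereas Trp63, the basal lineage factor gene, fell by 4.82 (adjusted p = 0.000291) and Myh11, also in the pericyte list, by 2.22 (adjusted p = 9.56e-05).

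Adipocyte markers summed to 497.6, 365.1 and 331.1 in control, 642.9, 5178 and 2492 in LATS1/2-KO, and 398.2, 1731 and 1437 in LATS1/2-Sox9-KO, with Fabp4, a fatty acid binding protein gene, the most abundant. Of these 6 genes 5 rose and none fell in LATS1/2-KO, among them Lep, the leptin gene (no count in any control), the lipid droplet gene Cidec (0.378 ± 0.655 to 201 ± 197) and the adiponectin gene Adipoq (1.24 ± 2.16 to 153 ± 146). Of the same 6 genes 3 rose and none fell in LATS1/2-Sox9-KO against control (median log2 fold change 3.31), beside 29.3% and 28.7% of all genes. The libraries with the lowest Vim of each mutant group, replicate 1 of both, also had the lowest adipocyte sum. The part of any of these cell types in the rise of Vim and Nes was not tested.

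**Figure D3:**
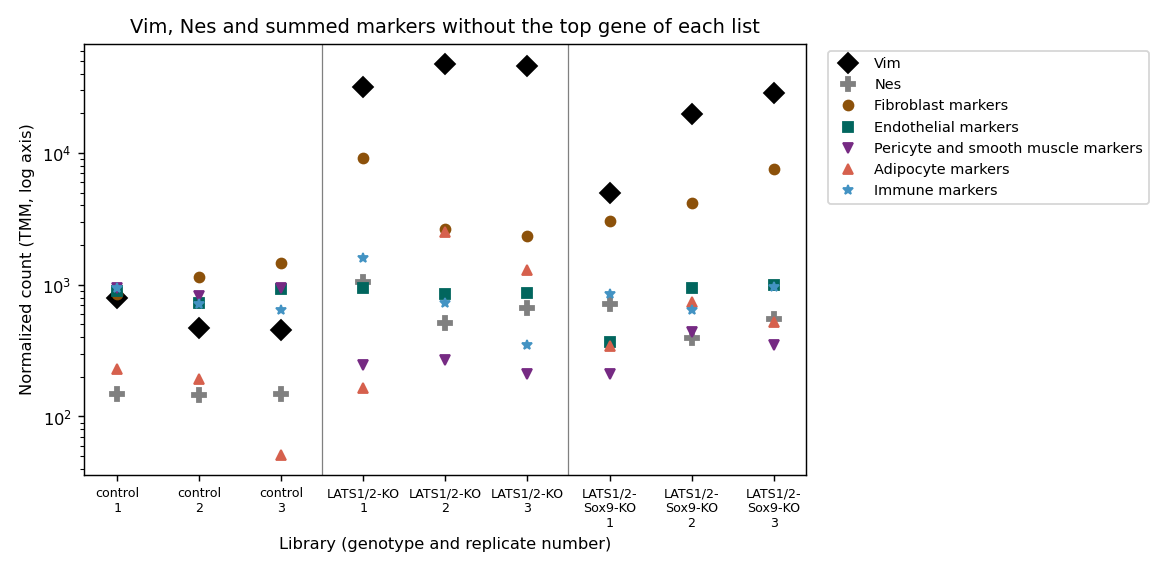
Normalized counts (logarithmic axis) of Vim, Nes and the summed markers of 5 non-epithelial cell types, each without its most abundant gene (Dcn, Vwf, Notch3, Fabp4 and Csf1r), in each of the 9 libraries, with lines between the genotypes. Vim is between 453 and 799 in control and between 4975 and 47792 in the mutants, and fibroblast sums are higher and pericyte sums lower in the mutants, endothelial and immune sums overlap, and adipocyte sums (51.03 to 228.5 in control, 165.5 to 2502 in the mutants) are above every control in 5 of the 6 mutant libraries.

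Between the mutant groups no fibroblast, pericyte, immune or adipocyte marker passed, where 6.45% of all genes did. In LATS1/2-Sox9-KO 1 of 10 endothelial and 3 of 8 myoepithelial markers fell, against 3.33% of all genes. Among the myoepithelial markers that fell were Oxtr, the oxytocin receptor gene (499 ± 449 to 85.5 ± 18.8, adjusted p = 0.0345), and Cnn1, encoding calponin of contractile cells (479 ± 70.6 to 113 ± 4.76, adjusted p = 0.00149). Set against the principal pair on the per-length scale, Vim came to 0.0458% ± 0.0178 of the sum of Krt8 and Krt18 in control, 2.06% ± 0.403 in LATS1/2-KO and 0.539% ± 0.387 in LATS1/2-Sox9-KO. The 3 groups did not overlap in this ratio, whose highest value was 2.32% in LATS1/2-KO and 0.905% in LATS1/2-Sox9-KO. Both parts of the ratio differed between the mutant groups. Krt8 and Krt18 rose there by 0.68 and 0.82 on the log2 scale, and Vim, at -1.23, did not pass (adjusted p = 0.179). The ratio itself was not tested. 

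The profiles of the 8 genes over the 9 libraries were compared by Pearson's r of log2 CPM, where libraries of a genotype share their deviation from the other groups. Krt8 and Krt18 were the most alike (r = 0.98), and Krt7 followed Krt18 (0.947), Krt80 (0.944) and Krt8 (0.935). Vim and Nes had r = 0.874 with each other, and Nes had the same value with Krt7. Vim had 0.844 with Krt7, 0.778 with Krt80, 0.643 with Krt18 and 0.639 with Krt8, and Nes had 0.782 with Krt80. Krt19 had a negative r with each of the other 7 genes, from -0.782 with Vim to -0.075 with Krt23. Among 11627 other genes, those most like Krt7 were Znhit6 (0.999), Xpo1 (0.998) and Bid (0.997), and those most like Krt8 were Trex2 (0.994), Plekha2 (0.993) and Ifi30 (0.989). Eif3d (0.996), Oasl1 (0.992) and Ddx60 (0.991) were most like Krt18, and Tars2 (0.987), Igf2r (0.98) and H6pd (0.975) most like Krt19. For Krt23 they were Epsti1 (0.972), Gca (0.966) and Taf10 (0.962), and for Krt80 Eif2s2 (0.992), Rabggtb (0.991) and Gnl3 (0.99). Phf6 (0.995), Efna4 (0.994) and Vrk2 (0.994) had profiles most like that of Vim, and Zdhhc16 (0.988), Stk17b (0.986) and Psip1 (0.985) most like that of Nes. Likeness concerns the shape of a profile and not its size: Trex2 rose by 5.32 in LATS1/2-KO on the log2 scale where Krt8 rose by 0.58.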

How the data were processed

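RNA was sequenced from 9 libraries of sorted EYFP+ mammary cells, 3 per genotype. The deposited values are raw read counts per Ensembl gene, which the authors made by aligning reads to mm10 with STAR 2.6.0c and counting uniquely aligned proper pairs with featureCounts (Subread 1.6.2), without mitochondrial genes, normalization or pooling. Groups and replicate numbers came from the sample labels, and nothing used here says that the libraries came from separate mice, so p-values measure the spread between these libraries. No libraries of a group agreed within sampling noise. Gene symbols, positions and merged exon lengths came from GENCODE M21, which held 55190 of the 55450 identifiers.

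Counts were analysed in R 4.3.3 with edgeR 4.0.16: filterByExpr, TMM factors, and the quasi-likelihood test in 1 model of all 9 libraries, with Benjamini-Hochberg adjustment over 19357 genes. All adjusted p-values in the text are from this test unless another setting is named, and a gene rose or fell where its adjusted p was at most 0.05. Errors are SD over libraries for levels and SE for log2 fold changes. Krt5, Des and Myh11 are each in 2 lists. Krt5 is named as a basal marker after its value was seen. The 8 genes, the 12 gene lists and the tests were chosen with earlier results of these data known, and 1 of the lists is not reported here. From each list up to 2 rises and 2 falls, by log2 fold change, were named in LATS1/2-KO against control and in LATS1/2-Sox9-KO against LATS1/2-KO, among genes that passed and whose higher group averaged 100 or more normalized counts. The 3 genes most like each of the 8 were taken by Pearson's r among genes averaging 100 or more over all libraries, without predicted genes, and other genes are named as the most abundant of a list or as Krt8-ps and overlapping genes, and Ptprc and Cd3e as defining immune genes and Cspg4 and Lep as list members after their values were seen. Alternatives were DESeq2 1.42.0, 3 other scalings, 2 other filters, a fit of 2 groups, a replicate block, leaving out each library, summing Krt8 with Krt8-ps, and CCDS transcript lengths, the last 2 chosen after seeing the data.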

Additional observations from a re-analysis of the deposited data

How the results depend on the processing

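Under 18 alternatives, every one of the 8 genes that passed kept its direction and its call in each comparison. The count of the 8 that passed was 7 to 8 in both comparisons with control. Past both thresholds the count was 4 to 6 in LATS1/2-KO against control, where the main fit gave 5. Krt19 fell there by less than 2-fold without LATS1/2-KO replicate 2 (-0.82). In LATS1/2-Sox9-KO against control the count past both thresholds was 7 throughout. Between the mutant groups the count that passed went from 3 to 5 without LATS1/2-KO replicate 1 (3 to 5 over the libraries left out). The count past both thresholds went there from 0 to 1 with DESeq2 and to 2 without that library (0 to 2 over the libraries left out). For genes that had not passed, Krt23 in LATS1/2-KO against control did so with DESeq2 (adjusted p = 0.0263), with no filter (0.0285) and with the replicate block (0.0447). Krt19 passed in LATS1/2-Sox9-KO against control in a fit of those 2 groups (-0.36, adjusted p = 0.0453) and between the mutants with no filter (0.70, adjusted p = 0.0477), and Krt23 passed between the mutants with DESeq2 (1.31, adjusted p = 0.0334). The cause was not tested.

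Replicate numbers are shared between groups in the labels, but same-numbered libraries did not deviate together (r from -0.066 to 0.17, over 0.1 in 2 of 9 pairs), so the numbers were not taken to pair the samples. With the replicate block 8, 7 and 3 of the 8 genes passed in LATS1/2-KO against control, LATS1/2-Sox9-KO against control and LATS1/2-Sox9-KO against LATS1/2-KO, and 975 of all genes passed in the last, against 1249 without it. That total was 2400 with DESeq2, and 249 to 2044 with libraries left out. Of 1296 counts over the gene lists, 1175 were within 1.5 times the reported count, and the rest differed by at most 4 genes. Nes and Krt23, at 111 to 1300 normalized counts, had the least depth behind their values.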
